A study of Mus musculus with 2 samples.

Results

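Proximal T cell receptor signalling genes encode the kinases, adaptors, enzymes and brakes that act between the T cell antigen receptor at the membrane and the first second messengers. A set of 42 such genes was examined, each matched by its GENCODE M21 gene name to the gene tables of both libraries, out of 55536 named genes. Each member was assigned a role from general knowledge of the pathway: 18 activating, 19 restraining and 5 of mixed role. Mixed means that both kinds of function have been described. The members and roles were chosen with earlier results of these data known, so their levels are a description. All 42 were found in both tables.

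The samples were regulatory T cells described as inflammation-experienced, from adult male mice of the strain Foxp3CreERT2 x Rosa26YFP at an age of 6 months, and labelled as primary cells that arose from a haematopoietic cell of the bone marrow. In that strain the Foxp3 gene drives a tamoxifen-inducible Cre, and a YFP reporter sits at the Rosa26 locus, so the lineage can be marked at a chosen time. The labels used here name neither the inflammatory trigger nor the tissue from which the cells were taken, nor how many mice were used. The series holds 1 group with 1 biological replicate and 2 technical libraries of polyadenylated RNA, sheared and sized to 100 to 300 base pairs. There was therefore no control group and no second condition, and levels are given as a description with the spread between the 2 technical libraries. That spread covers library preparation and sequencing, not mice.

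When a T cell receptor is engaged, the kinases Lck and Fyn phosphorylate its signalling chains, Zap70 docks on them, and Zap70 phosphorylates the scaffolds Lat and Lcp2 (SLP-76). These scaffolds collect phospholipase C gamma, the exchange factors Vav1 and Sos1, and the Grb2 family of adaptors, which lead to calcium entry, Ras and NF-kappaB. Phosphatases, ubiquitin ligases, lipid kinases, Ras GTPase activators and inhibitory adaptors oppose these steps. Regulatory T cells depend on antigen receptor signals for their suppressive function, while several of these steps are known to be tuned down in them.

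The libraries held 15386113 and 13604480 estimated counts over named genes in technical replicates 1 and 2. Levels are in TPM, a count per transcript length scaled to a fixed total per library, which corrects for transcript length and so allows genes to be compared within a library. All 7 T cell markers (among them Cd3e, Cd4 and Trac) and all 5 regulatory T cell markers were detected, meaning at least 1 TPM in both libraries. Foxp3, the factor that defines the lineage, was at 22.1 and 17.9 TPM. None of 7 B cell markers and none of 7 myeloid markers was detected. Their summed levels were 4.09 and 2.59 TPM for the B cell list and 1.88 and 2.17 TPM for the myeloid list. Of 6 NK and CD8 T cell markers 3 were detected (Gzmb, Cd8b1 and Cd8a), with a summed level of 29.8 and 31.9 TPM over the list. In bulk RNA, fewer cells of a type and less RNA per cell cannot be told apart.

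All 42 members were detected, against 46.7% of all 22028 protein-coding genes (10288 genes). Their median level was 94.2 TPM, and the median of the detected protein-coding genes was 18.3 TPM. Members ranged from Sos1 at 4.64 TPM to Lck at 1228 TPM, and 17 of the 42 were in the top 10% of detected protein-coding genes. Only 4 members lay below the median of those genes: the restraining members Cbl, Ubash3b and Pag1 and the activating member Sos1. Members with shorter transcripts tended to have higher TPM, with a Spearman correlation across the 42 genes of -0.57 in both libraries. That correlation is across genes of the same libraries and carries no test.

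**Figure D1:**
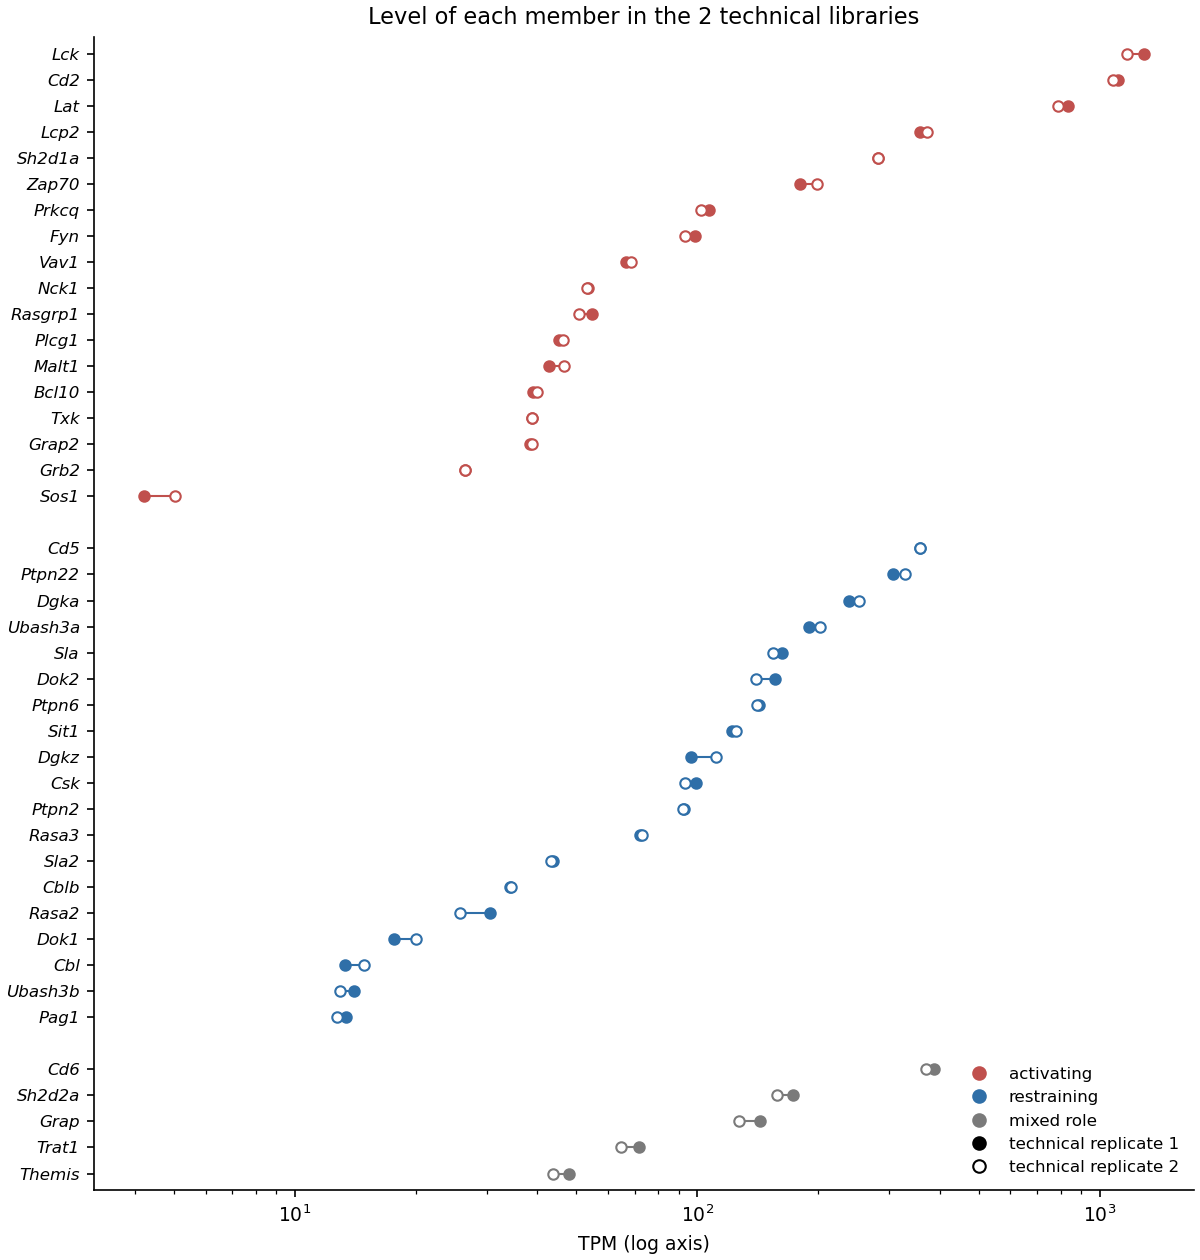
The horizontal axis gives TPM on a log scale and each row is 1 of the 42 genes, ordered by mean level within its role. Filled points are technical replicate 1 and open points technical replicate 2. Lck, Cd2 and Lat sit far to the right of the other activating genes, while the restraining genes run from 13.1 to 357 TPM without such a gap.

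By TPM, activating genes were spread more widely than restraining ones. The activating median was 60.5 and 60.9 TPM in technical replicates 1 and 2, and the restraining median was 96.6 and 93.0 TPM. The means ran the other way, at 255 TPM for the activating and 117 TPM for the restraining genes. A few genes carried the activating mean: Lck, Cd2 and Lat held 69.3% and 67.5% of the summed activating TPM, while the top 3 restraining genes, Cd5, Ptpn22 and Dgka, held 40.9% and 41.99% of theirs. At 100 TPM or more stood 7 of 18 activating and 9 of 19 restraining genes, and at 300 TPM or more 4 and 2. The restraining genes made up 32.1% and 33.2% of the summed TPM of both roles. These shares depended on the counts used. In a second, smaller count table, described below, the restraining share was 48.2%. There Lck, Cd2 and Lat each kept a smaller share of their counts than the median member. Members are not replicates of a condition, so the roles were not tested against each other. The gap between the medians rested on what was counted: with protein-coding transcripts only, the activating median was 54.4 TPM and the restraining median 57.6 TPM.

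**Figure D2:**
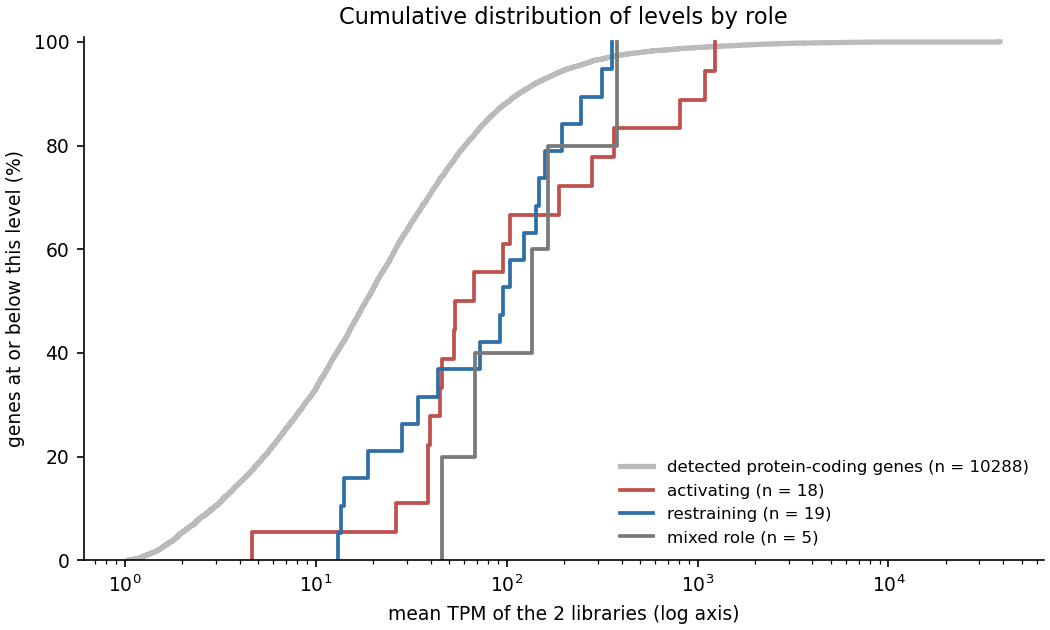
Cumulative share of genes (vertical axis, percent) at or below each mean TPM (horizontal axis, log scale) for the 10288 detected protein-coding genes in grey and for the 3 roles in colour. The red activating curve starts at a lower level than the blue restraining curve, with Sos1, and ends at a higher one, with Lck.

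Related genes were compared by TPM in 22 pairs. Each ratio was also taken per length from a second, smaller count table (genome alignments and an older annotation) and from protein-coding transcripts alone, and both are quoted where they turned a ratio or moved it by over 1.5 times. The smaller table was divided by the gene lengths of the larger one, so its ratios are not an independent length-corrected level. These alternatives were chosen after the data were seen. The smaller table moved 14 of the 22 ratios by over 1.5 times and turned 3, and coding transcripts moved 9 and turned 5.

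Lck, the Src-family kinase that phosphorylates the receptor chains and travels with Cd4, was the highest of all members by TPM. Per length in the smaller table, Cd2 stood above Lck in both libraries. The Lck gene (ENSMUSG00000000409) lies on the minus strand of chromosome 4 at 129548344 to 129573641 in mm10. Its level was 1287 TPM in the first and 1169 TPM in the second library, from 27626 and 22318 counts, and held 16.7% and 15.6% of the summed TPM of all members. Fyn, the second Src-family kinase of T cells, lay on chromosome 10 and was at 98.5 and 93.5 TPM. Lck was thus 13.1-fold and 12.5-fold above Fyn by TPM, and 4.93-fold and 5.26-fold in the smaller table. Zap70, the kinase that docks on the phosphorylated chains, was at 180 and 198 TPM. Syk, the relative of Zap70 used by B and myeloid cells, had 5 and 24 counts, at 0.12 and 0.43 TPM. Txk, a Tec-family kinase that acts on phospholipase C gamma, was at 38.8 and 38.9 TPM and was the lowest of the 4 kinases in both libraries.

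Lck can be transcribed from a distal and a proximal start, and the distal one is known to be preferred in mature T cells and the proximal one in thymocytes. Among protein-coding Lck transcripts, the 1 transcript from the distal start (Lck-202) held 86.1% and 87.9% of the estimated counts. The 3 others (Lck-201, Lck-206 and Lck-208) held 13.9% and 12.1%. They were grouped as proximal because they lack the distal start, and whether all 3 share the proximal start was not checked. Lck-206 is annotated with only 368 bases and held 82.0 and 63.1 of the 212 and 168 TPM of the group. By TPM the distal share was 80.9% and 83.3%. The transcripts share most of their sequence, so the split rests on the reads that tell them apart. The 250 bases before each start, from RefSeq on GRCm38.p6, are shown with matches to 2 short motifs in capitals. They are given because the data separate the distal transcript from the others. The motifs were AGGAAG, a core bound by ETS factors, and TGTGGT, a core bound by RUNX factors, on either strand.
Distal promoter, chr4:129573642-129573891, minus strand: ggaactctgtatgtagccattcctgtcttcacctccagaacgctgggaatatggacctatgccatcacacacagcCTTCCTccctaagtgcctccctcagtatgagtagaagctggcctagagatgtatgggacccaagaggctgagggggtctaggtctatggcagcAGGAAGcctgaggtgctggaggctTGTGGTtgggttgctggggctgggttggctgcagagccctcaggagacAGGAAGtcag
Proximal promoter, chr4:129558373-129558622, minus strand: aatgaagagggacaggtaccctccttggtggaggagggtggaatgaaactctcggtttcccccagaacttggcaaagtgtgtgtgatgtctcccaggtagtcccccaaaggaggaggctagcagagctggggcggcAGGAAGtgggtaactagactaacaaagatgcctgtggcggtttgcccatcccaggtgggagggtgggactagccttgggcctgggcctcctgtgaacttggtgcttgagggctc
The distal window held 3 matches to AGGAAG and 1 to TGTGGT, and the proximal window 1 and 0, with no overlapping matches. The GENCODE proximal start, at 129558391, lies inside the proximal window, since RefSeq places that start slightly downstream. AGGAAG occurs in 29.5% and TGTGGT in 14.05% of 32851 RefSeq promoter windows of the same length. Of the members, 31 had promoter entries, 45 in all, and 24 of those windows held AGGAAG and 7 held TGTGGT. A match is a description of letters, not a shown binding site.

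Fyn carries 2 alternative exons that are never used together, known as the brain and the T cell form of the kinase. They encode the stretch that joins the SH2 domain to the start of the kinase domain. Both are shown because the libraries hold transcripts of both. They are read from GENCODE M21 transcripts on GRCm38, and capitals mark the bases that differ or lie in a gap when the exons are aligned.
Upstream exon, chr10:39529437-39529601, plus strand: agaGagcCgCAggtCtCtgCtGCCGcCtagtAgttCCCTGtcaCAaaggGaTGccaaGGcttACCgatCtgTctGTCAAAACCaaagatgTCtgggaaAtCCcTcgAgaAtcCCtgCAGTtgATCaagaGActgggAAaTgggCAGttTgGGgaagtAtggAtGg
Downstream exon, chr10:39529919-39530074, plus strand: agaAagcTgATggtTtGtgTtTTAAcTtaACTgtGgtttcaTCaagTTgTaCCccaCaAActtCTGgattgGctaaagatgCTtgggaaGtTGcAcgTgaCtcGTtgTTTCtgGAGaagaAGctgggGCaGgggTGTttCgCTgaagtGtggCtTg
The upstream exon is 165 bases long and the downstream exon 156, and 95 aligned positions (55.6%) were identical. Transcripts with the downstream exon encode 534 codons, which is the T cell form, and the transcript with the upstream exon 537. Of the estimated counts of transcripts that span the region, 59.3% and 54.2% went to the downstream exon and 15.7% and 24.7% to the upstream exon. A further 24.98% and 21.04% went to Fyn-206, which has neither exon and an annotated reading frame of 482 codons. By TPM the shares were 48.8% and 47.2% for the downstream exon, 12.9% and 20.4% for the upstream exon, and 38.3% and 32.4% for neither. The downstream form led in both libraries, and the upstream share moved by more between the libraries than the others.

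**Figure D3:**
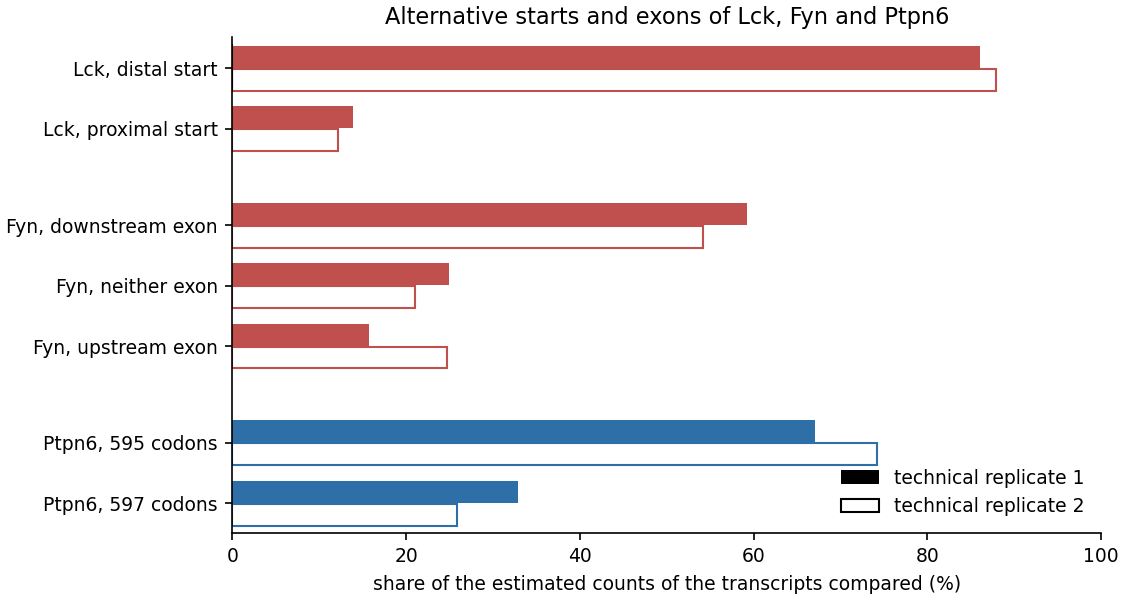
Bars give the share of estimated counts (horizontal axis, percent) among the transcripts compared for each gene, filled for technical replicate 1 and open for technical replicate 2. The distal Lck start, the downstream Fyn exon and the 595-codon form of Ptpn6 lead in both libraries.

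Among the adaptors, Lat stood highest, at 833 and 790 TPM. Lat is the membrane scaffold that Zap70 phosphorylates, and its relative Lat2, used mainly in B and myeloid cells, was at 4.70 and 5.47 TPM. Lcp2, the cytosolic scaffold that pairs with Lat, was at 357 and 372 TPM. Blnk, its counterpart in B cells, had 2 counts in technical replicate 1 and was listed at 0 in technical replicate 2. Sh2d1a (SAP), the small adaptor that links SLAM-family receptors to Fyn, was at 282 and 281 TPM, and its relative Sh2d1b1 was listed at 0 in both libraries. Nck1, which ties Lcp2 to the actin machinery, was at 53.7 and 53.3 TPM, 3.86-fold and 3.54-fold above Nck2. In the smaller table that ratio was 19.1 and 23.4. Cd2, an adhesion co-receptor that brings Lck and adaptors to the contact with the presenting cell, was the second highest member by TPM, at 1112 and 1078.

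The Grb2 family differed in level among its 3 members. Grap, counted here as mixed because it has been described both as a carrier and as a brake of Ras signals, was the highest at 143 and 127 TPM. Grap2 (Gads), which couples Lcp2 to Lat, was at 38.5 and 38.8 TPM. Grb2, which brings Sos to Lat, was the lowest at 26.4 and 26.5 TPM, so that Grap stood 5.41-fold and 4.79-fold above it, and 18.5-fold and 17.9-fold in the smaller table. Grap2 was 1.46-fold and 1.47-fold above Grb2 by TPM, and 3.35-fold and 4.201-fold in the smaller table. Within Grap2, the leading transcript by TPM differed between the libraries. Of the Grb2 TPM, 73.5% and 75.6% in technical replicates 1 and 2 went to a coding transcript of 176 codons. Coding transcripts of 217 codons held the rest, at 2.79 and 6.46 TPM for one and 4.2 and 0 TPM for the other. The Grb2 level and ratios above count both lengths together. Whether the shorter form brings Sos to Lat was not tested.

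The 4 effector enzymes had a median of 49.9 and 48.5 TPM, against 139 and 146 TPM for the 4 tyrosine kinases and 168 and 167 TPM for the 6 adaptors, with overlapping ranges. Vav1, the exchange factor for Rac, was at 66.5 and 68.6 TPM, and its relatives Vav2 and Vav3 were at 5.22 and 4.35 TPM and at 11.3 and 11.8 TPM. Vav1 was the highest of the 3 in both tables, though the smaller one raised its lead over Vav2 from 12.7-fold and 15.8-fold to 42.4-fold and 48.8-fold, and over Vav3 from 5.86-fold and 5.84-fold to 10.1-fold and 11.7-fold. With coding transcripts only, its lead was 9.93-fold and 9.13-fold over Vav3, and 12.97-fold and 46.8-fold over Vav2. Plcg1, the phospholipase that makes diacylglycerol and inositol trisphosphate, was at 45.3 and 46.3 TPM. Its B cell relative Plcg2 had 4 and 5 counts, at 0.08 and 0.11 TPM. For Ras activation, Rasgrp1, which is recruited by diacylglycerol, was at 54.6 and 50.8 TPM, against 50.9 and 69.9 TPM for Rasgrp2. By TPM the order of these 2 genes switched between the libraries. In the smaller table Rasgrp2 was the higher one in both, by 1.93-fold and 2.82-fold. Sos1, the exchange factor that Grb2 carries, was the lowest member at 4.23 and 5.04 TPM from 429 and 456 counts (95% exact Poisson intervals 389 to 472 and 415 to 500, counting error only). Sos2 was 2.55-fold and 2.75-fold higher at 10.8 and 13.9 TPM. The order turned with protein-coding transcripts only, where Sos2 was at 0.545 and 0.537 times Sos1. Plcg1 shares its locus with Zhx3 on the opposite strand, which had 669 and 728 counts. The strandedness of the counting is not given in the sources used here, so reads over the shared stretch may not be separable. In all, 28 members overlap another annotated gene, 22 of them one on the opposite strand.

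In the branch to NF-kappaB, Prkcq (protein kinase C theta) was at 107 and 102 TPM and stood 5.08-fold and 5.39-fold above Prkcd. Malt1 and Bcl10, which act together in a filament-forming complex, were at 42.8 and 46.7 TPM and at 39.0 and 40.1 TPM. Malt1 was thus 1.10-fold and 1.17-fold above Bcl10 by TPM. The order turned in the smaller table, with Malt1 at 0.581 and 0.646 times Bcl10, and with coding transcripts only, at 0.414 and 0.426 times. All coding reads of Malt1 in the 2 annotated full-length forms went to the 821-codon form (983 and 920 counts), and the 832-codon form, which carries 1 extra small exon, was listed at 0 in both libraries.

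Restraining genes were led by membrane and cytosolic brakes. Cd5, a receptor that dampens antigen receptor signals and whose level is known to follow their strength, was at 358 and 357 TPM. Cd6, its close relative on chromosome 19, was counted as mixed and was at 387 and 370 TPM. The 2 genes lie on the same strand, Cd5 at 10717116 to 10739002 and Cd6 at 10789341 to 10830058, separated by 50338 bases with 1 gene between them. Cd6 was 1.08-fold and 1.03-fold above Cd5 by TPM and 0.866 and 0.849 times Cd5 per length in the smaller table and 0.919 and 0.871 times with coding transcripts only, so their order was not settled. Over the 7 inhibitory receptors and adaptors the median was 122 and 125 TPM. Sit1, a membrane adaptor that binds phosphatases, was at 122 and 125 TPM.

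The inhibitory adaptors came in pairs of unequal level. Sla, which promotes loss of receptor chains together with Cbl, was at 162 and 154 TPM and 3.70-fold and 3.56-fold above Sla2 at 43.8 and 43.3 TPM. In the smaller table the ratio was 2.05 and 1.96. Dok2, an adaptor that recruits Ras GTPase activators, was at 156 and 140 TPM, and Dok1 at 17.6 and 20.0 TPM. Dok3, the member of the family used in B and myeloid cells, was at 0.69 and 0.54 TPM. Dok2 shares its locus with Xpo7 on the opposite strand, which had 682 and 576 counts.

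Csk, the kinase that phosphorylates the inhibitory tail of Lck and Fyn, was at 99.4 and 93.0 TPM. Pag1, a membrane anchor for Csk, was the lowest restraining member at 13.4 and 12.7 TPM. Csk was 7.41-fold and 7.32-fold above Pag1 by TPM. The smaller table put the same ratio at 99.9 and 90.8, since it held only 3.39% and 3.72% of the Pag1 counts of the larger one. With coding transcripts only it was 18.1 and 15.5.

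Of the phosphatases, Ptpn22, which dephosphorylates Lck and Zap70, was the highest at 306 and 328 TPM. With coding transcripts only, Ptpn22 was at 134 and 148 TPM, near the 131 and 130 TPM of Ptpn6. Ptpn6 (SHP-1), a phosphatase recruited by inhibitory receptors, was at 142 and 141 TPM and 19.6-fold and 16.1-fold above Ptpn11 (SHP-2), and 45.2-fold and 38.6-fold in the smaller table. Ptpn2, which acts on Lck and on cytokine receptor kinases, was at 92.8 and 92.3 TPM, and Ptpn1 at 94.5 and 118 TPM. Ptpn1 was below Ptpn2 in the smaller table, at 0.647 and 0.860 times, and with coding transcripts only, at 0.359 and 0.376 times. Ubash3a, a weakly active relative that opposes antigen receptor signals, was at 190 and 202 TPM. Ubash3b, its more active relative that dephosphorylates Zap70, was 13.5-fold and 15.6-fold lower, at 14.03 and 12.97 TPM. That gap was 24.6-fold and 24.9-fold in the smaller table and 3.69-fold and 5.05-fold with coding transcripts only.

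Ptpn6 and Ptpn2 are known in forms that differ by start or by ending. Ptpn6 can start from an upstream promoter, known from epithelial cells, or a downstream one, known from blood cells. Of the counts of its full-length coding forms, the 595-codon form from the downstream start took 67.1% and 74.2%, and the 597-codon form from the upstream start 32.9% and 25.8%. For Ptpn2, the 382-codon form, which is the nuclear one, took 89.7% and 90.4% of the counts of coding transcripts. The 406-codon form, which stays at the endoplasmic reticulum, took 10.3% and 9.60%, and the 363-codon form was listed at 0.

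The ubiquitin ligases Cblb and Cbl, which mark signalling proteins for loss, were among the low restraining genes. Cblb was at 34.2 and 34.5 TPM, 2.57-fold and 2.31-fold above Cbl at 13.3 and 14.9 TPM. The ratio was 5.74 and 3.86 in the smaller table and 1.503 and 1.462 with coding transcripts only. Cblc had 4 counts and 1 count. Of the lipid kinases that remove diacylglycerol, Dgka was at 238 and 252 TPM and Dgkz at 96.6 and 111 TPM. In protein-coding transcripts alone Dgka was at 220.5 and 206 TPM, while Dgkz was at 7.76 and 6.03 TPM. That put Dgkz below the 17.9 and 19.2 TPM of Cblb and the 11.9 and 13.1 TPM of Cbl. Per length in the smaller table, Dgka was only 2.11-fold and 2.00-fold above Dgkz, near the 2.46-fold and 2.27-fold by TPM. Among the Ras GTPase activators, Rasa3 was at 71.9 and 72.9 TPM and Rasa2 at 30.6 and 25.8 TPM. Rasa1, a relative outside the member list, stood above both at 112 and 115 TPM. With coding transcripts only, Rasa1 was at 0.825 and 0.823 times Rasa3.

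The remaining mixed-role genes spanned 173 to 43.8 TPM. Sh2d2a (TSAd), an adaptor that binds Lck, was at 173 and 158 TPM. Trat1 (TRIM), a membrane adaptor that associates with the receptor complex, was at 71.8 and 64.7 TPM. Themis, which binds Grb2 and Ptpn6 and sets signal strength in thymocytes, was the lowest of the 5 at 47.9 and 43.8 TPM. All 5 mixed-role genes had lower TPM in technical replicate 2, as had 8692 of all 17334 genes tested between the libraries. Nothing particular to the mixed role is read from these 5 genes.

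Transcript annotation changed the picture for several genes. The 42 members have 254 annotated transcripts with values. The leading transcript by TPM was protein-coding in 38 members and by estimated counts in 40. Protein-coding transcripts held at least 90% of the TPM in both libraries in 18 members and under 50% in both in 6: Malt1, Ptpn22, Ubash3a, Dgkz, Pag1 and Trat1. The median member had 88.9% and 87.0% of its TPM in protein-coding transcripts, near the 84.6% in both libraries of the median detected protein-coding gene. Of those 6 genes, 4 are restraining, 1 is activating and 1 is of mixed role, while 19 of the 42 members are restraining. Nothing particular to a role is read from this split.

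Dgkz had the smallest coding share of all members. Its protein-coding transcripts held 8.03% and 5.42% of its TPM, retained-intron transcripts 50.1% and 55.2%, and transcripts annotated for nonsense-mediated decay 41.9% and 38.0%. Ubash3a had 27.3% and 31.3% in coding transcripts, and its leading entry was a processed transcript, Ubash3a-204, with 40.7% and 39.7%. In Malt1 the retained-intron transcripts held 63.0% and 63.1%. Dgkz, Ubash3a and Malt1 had coding shares under 50% by estimated counts too.

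For Ptpn22, Trat1 and Pag1 the answer depended on the scale. Coding transcripts of Ptpn22 held 43.8% and 45.2% of its TPM but 52.5% and 58.7% of its counts. The shorter Trat1 transcript, annotated for nonsense-mediated decay and 647 bases long, held 78.0% and 76.0% of the TPM. The coding Trat1 transcript is 4665 bases long and held more of the counts, 906 and 786 against 416 and 323. In the same way the processed transcript of Pag1, of 1158 bases led by TPM with 54.4% and 48.2%, while the coding one of 8256 bases led by counts with 478 and 454 against 100.6 and 74.4. In Dgka, the share of TPM in decay-annotated transcripts was 6.23% in technical replicate 1 and 17.5% in technical replicate 2. How much of these shares comes from unspliced RNA or from the assignment of shared reads was not tested.

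**Figure D4:**
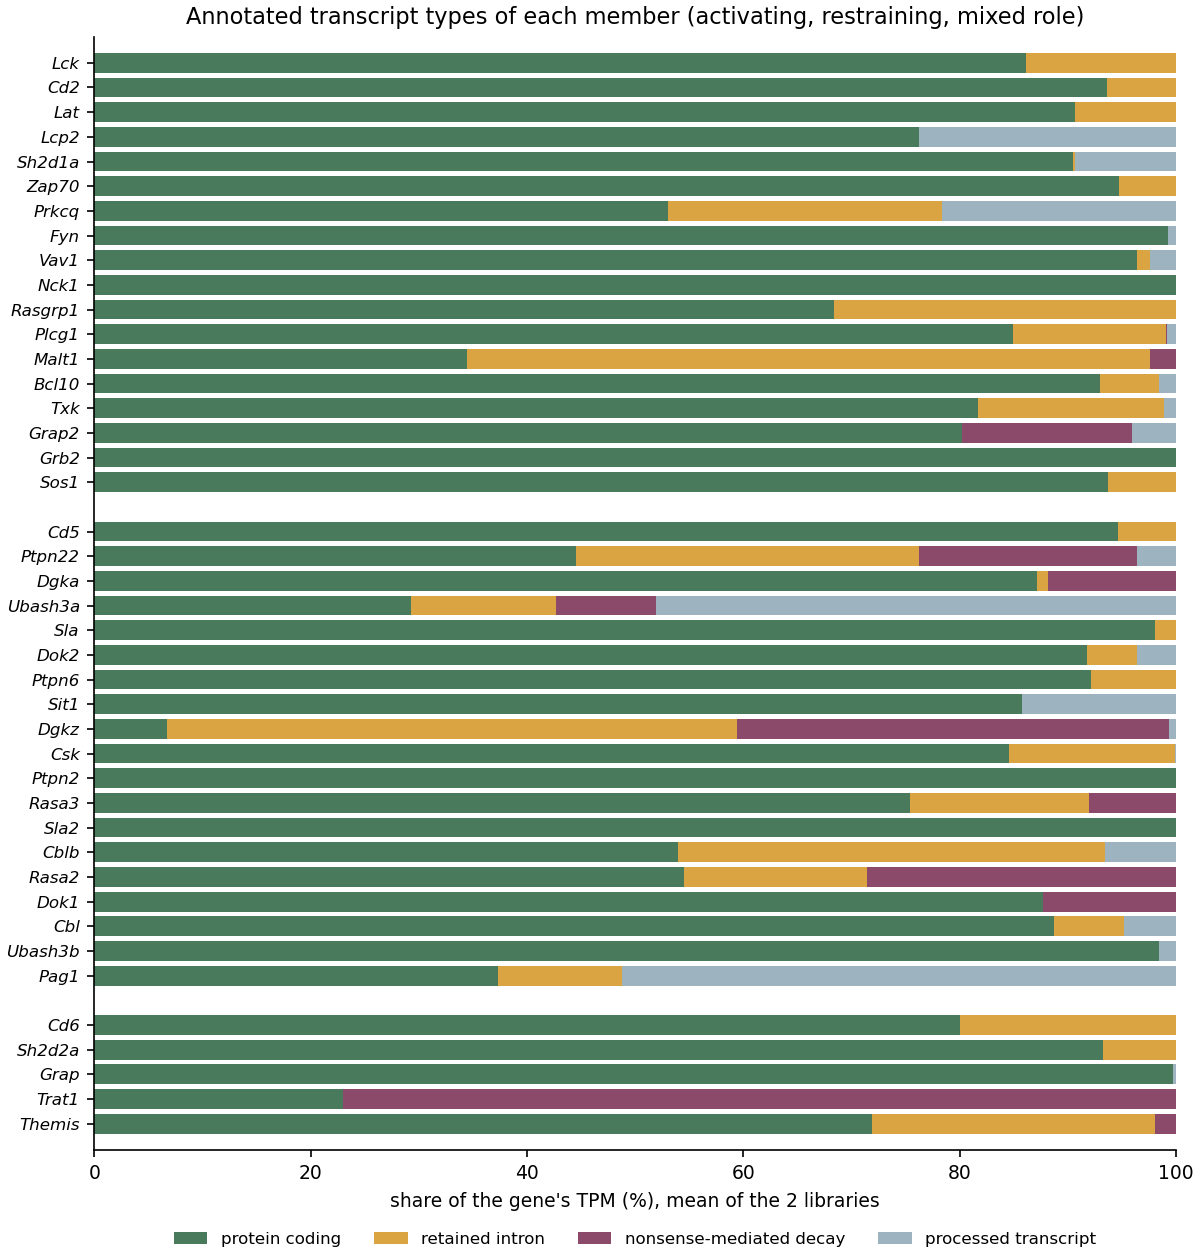
Each bar splits the TPM of 1 gene (horizontal axis, percent, mean of the 2 libraries) by annotated transcript type, with genes grouped by role and ordered by level. Most bars are green, for protein-coding transcripts, and those of Malt1, Ptpn22, Dgkz, Ubash3a, Pag1 and Trat1 are mostly other colours.

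The smaller count table held 3581589 and 3271045 counts. Every member had a row there. The median member had 32.4% and 34.4% of its larger-table counts, and the median detected protein-coding gene 40.2% and 41.3%. The shares ran from the low values of Pag1, given above, and of Grb2, at 7.55% and 7.26%, to Vav1, at 69.1% and 71.7%, and Dok1, at 64.4% and 72.1%. Lck kept 12.1% and 14.4%, Cd2 14.5% and 16.7%, and Lat 14.9% and 17.4%, so the 3 highest members by TPM all lost more than the median member. Across the 42 members this share had a Spearman correlation of 0.478 and 0.496 with the share of the gene's transcript length, weighted by counts, that is coding sequence, and of 0.00 and 0.01 with TPM. Over 5517 protein-coding genes with at least 390 counts in each library, the correlation with the coding share was 0.534 and 0.542. The relation was therefore not particular to the members. The ranking by counts per length still resembled the TPM ranking, with a Spearman correlation of 0.954 and 0.952 across members. The lengths came from the larger table here too. In the smaller table the restraining share of the summed per-length level was 48.2%. The cause of the uneven shares was not tested.

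Between the libraries, the largest difference of a member by TPM was 1.19-fold (Sos1). A two-sided exact binomial test of each gene's counts, against the share of normalized library size and with Benjamini-Hochberg adjustment over 17334 genes, called 14 members, 4 higher and 10 lower in technical replicate 2. This test compares 2 libraries by counting error alone and no conditions. Over all genes tested it called 19.1% (9.45% higher and 9.63% lower), and among genes with as many counts as the members 26.1%, against 14 of 42 here. Nothing particular to the members is read from that count. The log2 ratios of normalized counts of the called members ran from -0.24 (Ubash3b) to 0.27 (Sos1). Lck was lower by 0.13 on the log2 scale with an adjusted p = 8.09e-21 by the binomial test, the clearest of these calls in a gene with the most counts.

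The other activating calls were Lat (adjusted p = 0.0494, binomial test), Fyn (0.0440) and Rasgrp1 (0.0309) lower, and Zap70 (0.00203) and Sos1 (0.0374) higher. Of the restraining genes, Dok2 (3.31e-05), Ubash3b (0.00386) and Rasa2 (0.0102) were lower and Dgka (0.00517) and Ubash3a (0.0144) higher. The mixed-role genes Cd6 (2.17e-04), Sh2d2a (8.83e-05) and Grap (2.49e-04) were lower. None of the 42 was called by the exact test of edgeR, and none had an unadjusted p under 0.05 there. That test adds the spread between the libraries over all genes (a coefficient of variation of 0.105). The spread was estimated from the same 2 libraries that are compared, so the lack of calls does not show that members were equal. The smaller table gave calls for 2 members, Rasa2 and Cbl, and only Rasa2 was called in both tables.

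**Figure D5:**
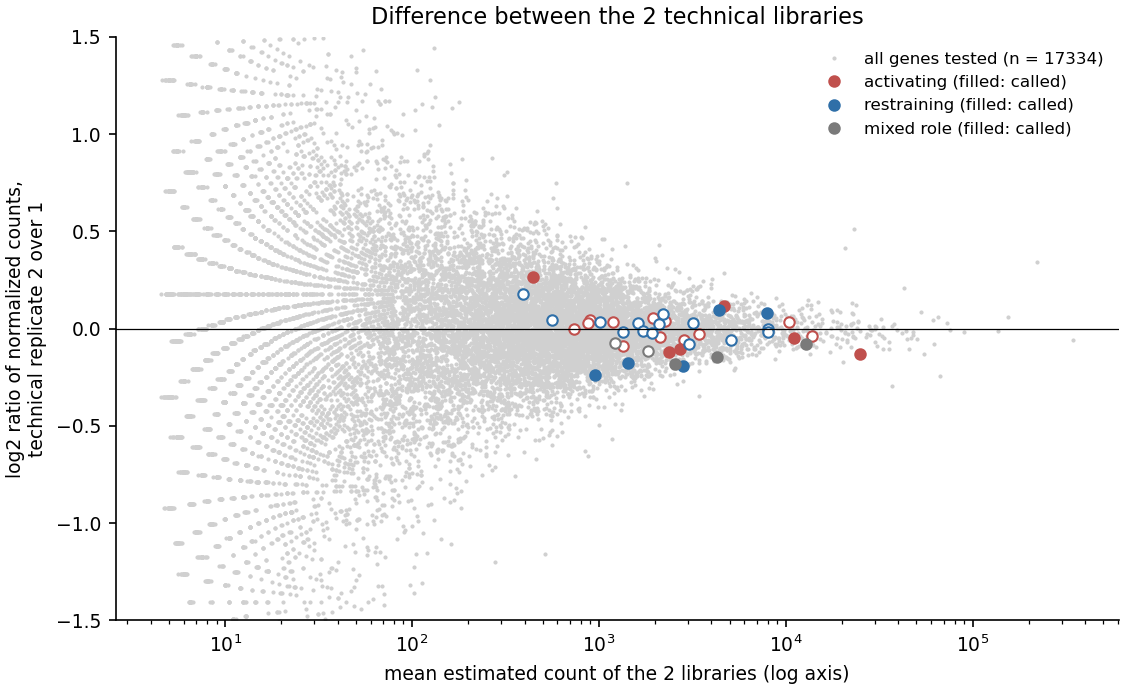
Each point is 1 gene, with its mean estimated count on a log axis and, on the vertical axis, the log2 ratio of normalized counts in technical replicate 2 over 1. Members (coloured, filled where called) lie in the narrow band of well-counted genes, and 954 of the 17334 grey genes lie beyond the plotted range of 1.5 either way.

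Of 30 other pathway genes outside the member list, 29 were detected, with a median of 58.8 TPM, and the binomial test called 6 higher and 3 lower in technical replicate 2, against 19.1% of all genes tested. The exact test of edgeR called 0 of the 30, and 0 had an unadjusted p under 0.05 there. The highest was Ptprc (CD45), the phosphatase that keeps Lck active, at 1002 and 993 TPM. Skap1 and Fyb, adaptors that link Lcp2 to integrins, were at 538 and 538 TPM and at 546 and 525 TPM. Cd247, the zeta chain on which Zap70 docks, was at 331 and 315 TPM. Gab2, at 0.01 and 0.04 TPM, was the only one not detected. Of 9 signalling genes used by B or myeloid cells in the same steps, 2 were detected: Lat2, given above, and Lyn at 1.91 and 1.89 TPM.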

How the data were processed

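Polyadenylated RNA was sequenced in 2 technical libraries of 1 biological replicate. Per the file headers, the authors deposited estimated counts, TPM and FPKM per gene and per transcript, with the percent of each gene's TPM per transcript. The description beside the files gives transcriptome alignments, mm10 and GENCODE M21. A second deposited table holds whole-number counts from genome alignments with GENCODE M4. The aligner, quantifier and strandedness are not given in the sources used here. Named genes held 99.83% and 99.84% of the estimated counts. Members were matched by gene name. The members, roles and gene lists were chosen with earlier results of these data known.

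Counts were rounded and tested between the libraries (genes with at least 10 summed counts) by an exact binomial test in SciPy 1.17.1, with TMM library sizes from edgeR 4.0.16 (R 4.3.3), and edgeR's exact test as an alternative. The script was tested on simulated data. DESeq2 1.42.0 size factors, posterior means, other filters and leaving out each library were tried. Members named with values follow a rule: receptor-proximal genes, the 3 highest and 3 lowest of each role, genes called between libraries, and fixed pairs of related genes. Other members described were added for their roles. Some genes of the fixed pairs are not reported here.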

Additional observations from a re-analysis of the deposited data

How the results depend on the processing

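No paired analysis was possible because the series holds 1 group. All 42 members were detected under every alternative but thresholds of 5 and 10 TPM, where 41 were (Sos1 was below). The activating median of 60.5 TPM was 60.54 to 60.93 with each library left out, 68.3 with mixed-role genes counted as activating and 53.5 without the highest gene of each role. The restraining median of 96.2 TPM was 93.0 to 96.6 with each library left out and 100.1 with mixed-role genes counted as restraining. With FPKM the activating and restraining medians were 48.8 and 77.5, with posterior mean TPM 54.1 and 88.2, with protein-coding transcripts only 54.4 and 57.6, and in the smaller table, per kilobase and scaled to a fixed total, 167 and 246. The restraining median was above the activating one in each. Of the ratios between related genes, those that turned in the smaller table were Malt1 over Bcl10 (0.616), Cd6 over Cd5 (0.857) and Ptpn1 over Ptpn2 (0.752). With protein-coding transcripts only they were Sos2 over Sos1 (0.540), Malt1 over Bcl10 (0.420), Cd6 over Cd5 (0.895), Ptpn1 over Ptpn2 (0.368) and Rasa1 over Rasa3 (0.824), all as ratios of means. Both were chosen as alternatives for the ratios after the data were seen. The restraining share of 32.6% was 32.1% to 33.2% with each library left out, 28.9% with protein-coding transcripts only, 48.2% in the smaller table, 29.2% and 39.6% with mixed-role genes counted as activating or restraining, and 35.7% without the highest gene of each role. Calls between the libraries (14 members and 3307 genes) fell to 0 and 312 with edgeR's exact test, and to 2 and 725 in the smaller table. The model of edgeR adds a spread between libraries, estimated from the same 2 libraries. The other settings gave 10 to 14 members and 2799 to 3316 genes. With 1 biological replicate, depth does not limit the levels of the members, which rest on at least 390 counts in each library, but the spread between mice is unknown.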
